A study of Rattus norvegicus with 8 samples.

Results

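The respiratory chain of H9C2 cells was followed here through its subunit genes, divided by the genome that encodes them. The members were all features on the mitochondrial chromosome (MT), together with nuclear features named Ndufa, Ndufab, Ndufb, Ndufc, Ndufs, Ndufv, Uqcr, Cox4 to Cox8 or Atp5 at the start of the name, and Cyc1, Cycs_1 and Sdha to Sdhd. Assembly factors named Ndufaf were excluded, and a feature needed at least 10 exon reads in 2 libraries. The rule named 126 of the 32258 features in the table, 89 nuclear and 37 on MT, and 91 passed the read minimum, 78 nuclear and 13 mitochondrially encoded. Over the whole table, 12642 features passed the same minimum.

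H9C2 is a clonal line derived from embryonic rat heart and described as cardiomyoblasts. The cells received, for 2 days, a YFP fusion of the nuclear receptor PPARalpha in 1 of 3 forms: S280D, which mimics phosphorylation at that serine, S280A, which cannot be phosphorylated there, or the wild-type receptor (WT). Control cells received the same pDC316 vector with YFP and no receptor (YFP), so that all 4 groups carried the vector and YFP. Each group had 2 RNA sequencing libraries, and the labels do not say whether these came from separate cultures, so each p-value here reflects the spread between the sequenced samples and no more. Untransduced cells were not analysed here.

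Oxidative phosphorylation passes electrons through complexes I to IV to oxygen, and ATP synthase (complex V) uses the proton gradient this builds. Cytochrome c carries electrons from complex III to complex IV. The mitochondrial genome encodes core subunits of complexes I, III, IV and V, while complex II, cytochrome c and all other subunits are encoded in the nucleus. Heart muscle depends on this machinery for most of its ATP, and PPARalpha is known as a regulator of fatty acid oxidation genes, whose products feed it.

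The libraries held 14018785 to 39526013 exon reads. Ppara reads gave 74.4 and 59.5 CPM (counts scaled to library size) in YFP cells, and the log2 fold change over YFP was 8.06 in S280D, 7.86 in S280A and 8.09 in WT cells, without separation of the introduced from the endogenous transcript. Of 11 cardiac defining markers, 5 had at least 10 reads in any library, with a summed level of 12.4 to 18.4 CPM. The natriuretic peptide genes Nppa and Nppb and the myosin light chain genes Myl2 and Myl7 were at or near 0. Gata4 had 6.01 to 10.7 CPM, Hand2 3.14 to 6.49 and Ryr2 0.586 to 2.56 over the libraries. Of 17 muscle lineage and contraction markers 13 were detected, at 511 to 938 CPM in sum. This sum came mostly from Tnnc1 (251.5 to 524.7 CPM), Tnnt2 (129.1 to 265.3), Acta1 (69.47 to 164.7) and Mef2c (19.73 to 68.71). Each of the others had at most 2.34 CPM, and Des, Myod1, Myf5, Myf6 and Myog at most 0.894. Of 9 fibroblast or mesenchymal markers 8 were detected, at 46747 to 75842 CPM. The column headers name 2 sequencing lanes. Both YFP libraries were on lane 1 and both WT libraries on lane 2, while S280D and S280A had 1 library on each, so that lane and construct cannot be told apart between WT and YFP.

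All 13 protein-coding genes of the mitochondrial genome were among the members: 7 subunits of complex I, 1 of complex III, 3 of complex IV and 2 of ATP synthase. The other 24 MT features, the ribosomal and transfer RNAs, had an exon length of 0 in the table and no reads. Among the nuclear members were 31 genes of complex I, 4 of complex II, 8 of complex III, 14 of complex IV, 18 with an Atp5 name and cytochrome c (Cycs_1), with Ndufa4 and Ndufa4l2 set apart because Ndufa4 is a subunit of complex IV. Of the Atp5 names, Atp5s encodes a coupling factor and Atp5sl a complex I assembly factor, rather than core subunits of the synthase. The 2 sets were of like exon length, with medians of 739.5 bases for the nuclear and 784.0 bases for the mitochondrially encoded members, against 2304.5 bases for all features above the minimum.

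Per length, mitochondrially encoded transcripts were the more abundant. Their RPKM (reads scaled to exon length and library size), averaged over all 8 libraries, ran from 56.5 for Mt-nd4l to 2468 for Mt-co1, with a median of 310.1. Nuclear members ran from 0.321 for Ndufa4l2, a hypoxia-linked paralogue of Ndufa4, to 952 for Cox6a1, a subunit of complex IV, with a median of 61.2. Just inside the read minimum were Ndufa4l2 with 3 to 12 reads per library, Cox7b2 with 7 to 77 and Ndufa13_1 with 10 to 43. Just outside it were Ndufa1 with 0 to 5 reads, Ndufb4l1 with 0 to 5 and Cox4i2 with 0 to 3. In all, 11 nuclear features fell under the minimum. For 14 of the 91 members most exon reads were not unique. The unique share was low in Cycs_1 (47.7%), Cox7b (15.5%), Cox6a1 (7.30%) and Mt-nd4l (38.6%), and their values are uncertain, since reads shared with near-identical copies could be assigned either way.

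RefSeq promoters of the GRCr8 assembly were available for 66 of the 78 nuclear members, each a window of 300 bases with 250 before and 50 after the annotated start. They were searched on both strands for words bound by regulators of respiratory genes: GCGCATGCG for NRF1, CCGGAAG for GABPA, TCAAGGTCA for an estrogen-related receptor (ERR), AAGATGGC for YY1, and AGGTCA repeated in the same direction after 1 base for PPAR. The ERR word contains AGGTCA. NRF1 words were found in 7 of the 66 promoters (10.6%), against 1.66% of all 27457 promoters. GABPA words were in 19 (28.8%, against 9.22%), YY1 words in 14 (21.2%, against 3.44%) and ERR words in 2 (3.03%, against 0.412%). No member promoter held the PPAR repeat, which 0.0583% of all promoters held, and at least 1 of the words was in 32 member promoters (48.5%, against 13.7%). Over the 19005 promoters of protein-coding genes alone, the shares were 2.03% for NRF1, 11.2% for GABPA, 3.92% for YY1 and 0.3525% for ERR. Among these, 0.0263% held the PPAR repeat and 16.2% held at least 1 of the words.

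The promoters of 5 of the 7 genes with an NRF1 word are shown. The first belongs to a gene that rose in S280D against YFP cells and the others to genes that fell. Atp5g2, which also fell, and Atp5l, which did not pass, are not shown. Each line gives the 250 bases before the annotated start, 5′ to 3′ on the gene's strand, with matched words in capitals. The Cycs_1 promoter lies at chr4:80984768-80985017 on the minus strand, Atp5i at chr14:1464610-1464859 on the plus strand, Atp5o at chr11:44657484-44657733 on the minus strand, Uqcrc1 at chr8:118467973-118468222 on the plus strand and Ndufa11 at chr9:1637364-1637613 on the plus strand of GRCr8.
Cycs_1: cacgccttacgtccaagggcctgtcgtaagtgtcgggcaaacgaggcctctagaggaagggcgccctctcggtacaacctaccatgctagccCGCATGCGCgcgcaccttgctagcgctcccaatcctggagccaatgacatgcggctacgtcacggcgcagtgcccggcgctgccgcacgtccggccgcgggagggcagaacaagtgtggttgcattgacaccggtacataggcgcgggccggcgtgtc
Atp5i: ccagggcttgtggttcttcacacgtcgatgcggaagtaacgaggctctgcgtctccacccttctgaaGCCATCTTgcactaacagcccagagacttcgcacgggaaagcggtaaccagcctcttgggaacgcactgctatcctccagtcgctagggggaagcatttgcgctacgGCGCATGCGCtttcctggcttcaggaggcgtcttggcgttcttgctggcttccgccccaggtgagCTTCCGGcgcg
Atp5o: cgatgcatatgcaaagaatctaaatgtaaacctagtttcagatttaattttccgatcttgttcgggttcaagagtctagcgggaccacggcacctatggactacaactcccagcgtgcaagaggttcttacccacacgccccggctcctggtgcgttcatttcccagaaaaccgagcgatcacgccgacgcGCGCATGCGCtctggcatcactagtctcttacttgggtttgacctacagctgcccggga
Uqcrc1: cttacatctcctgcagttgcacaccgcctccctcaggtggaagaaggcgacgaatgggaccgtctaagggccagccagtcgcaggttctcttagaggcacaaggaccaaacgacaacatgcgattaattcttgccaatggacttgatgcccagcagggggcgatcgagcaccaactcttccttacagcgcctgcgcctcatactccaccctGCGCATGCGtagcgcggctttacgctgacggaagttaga
Ndufa11: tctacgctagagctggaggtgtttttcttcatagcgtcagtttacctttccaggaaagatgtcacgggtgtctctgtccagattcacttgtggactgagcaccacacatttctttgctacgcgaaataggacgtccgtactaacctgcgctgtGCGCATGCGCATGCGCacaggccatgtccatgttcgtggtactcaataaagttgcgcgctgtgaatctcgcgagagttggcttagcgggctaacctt
The word in Cycs_1 lies 158 to 150 bases before the start. In Atp5i the first of the NRF1 words, which overlap, begins 76 bases before the start, the YY1 word begins 183 bases and the GABPA word 11 bases before it. Atp5o, Uqcrc1 and Ndufa11 carry NRF1 words that begin 59, 39 and 97 bases before the start, and Ndufa11 has 4 overlapping matches. The windows of Atp5o and Uqcrc1 also held a YY1 word, which does not lie wholly within the 250 bases printed. A match describes the letters only. Of the 29 promoters of nuclear genes lower in S280D than in YFP cells, 16 (55.2%) held at least 1 of the words, beside 32 of 66 for the nuclear members as a whole.

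Reads from the 2 genomes moved in opposite directions across the constructs. The 13 mitochondrially encoded genes took 1.66% and 1.40% of all exon reads in S280D cells, 0.791% and 0.490% in S280A cells, 1.37% and 1.17% in WT cells and 0.506% and 0.604% in YFP cells. S280D and WT libraries were all above S280A and YFP libraries. The 78 nuclear genes took 0.714% and 0.746% in S280D, 0.875% and 0.947% in S280A cells, 0.799% and 0.769% in WT cells and 0.964% and 0.871% in YFP cells, with every S280D and WT library below every S280A and YFP library. Mitochondrial reads per nuclear subunit read were therefore 2.32 and 1.88 in S280D, 0.905 and 0.518 in S280A cells, 1.72 and 1.52 in WT, and 0.525 and 0.693 in YFP cells. In the log2 of this ratio the means were 1.06 ± 0.21 in S280D, −0.55 ± 0.57 in S280A cells, 0.69 ± 0.13 in WT and −0.73 ± 0.28 in YFP cells (SD, n = 2 each).

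An exact permutation test of the 4 groups over all 2520 assignments of the libraries gave p = 0.0476 for the ratio, p = 0.0571 for the mitochondrial share and p = 0.0476 for the nuclear share, where 0.00952 is the smallest p the design allows. For the ratio the p was 0.0667 by the Kruskal-Wallis statistic and lay between 0.0191 and 0.0952 when 1 library was left out, at 0.0191 without either S280A library. Pairs of groups of 2 libraries cannot pass such a test, so pairwise ratios are given as values. The ratio was 3.47-fold higher in S280D than in YFP cells, 1.14-fold higher in S280A than in YFP and 2.68-fold higher in WT than in YFP. It was 3.05-fold higher in S280D than in S280A cells, 1.29-fold higher in S280D than in WT, and 0.424 times the WT value in S280A. Without S280A replicate 1 the log2 difference of S280A over YFP was −0.22, and without YFP replicate 1 it was −0.02, against 0.18 with all libraries. In these bulk samples, fewer cells of a kind and less RNA per cell cannot be told apart.

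**Figure D1:**
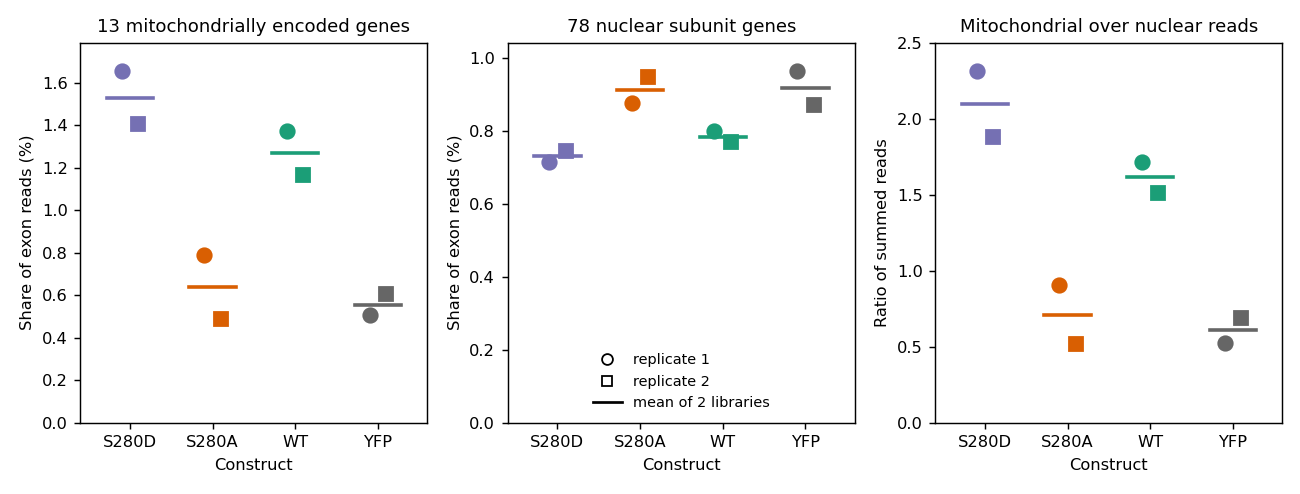
Share of exon reads from the 13 mitochondrially encoded genes (left, %), share from the 78 nuclear subunit genes (middle, %) and the ratio of the summed reads (right), in the 4 groups. Each circle is the first and each square the second replicate, and a line is the mean of both; the S280D and WT libraries have ratios of 1.52 to 2.32, and the S280A and YFP libraries 0.518 to 0.905.

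S280D and S280A are the constructs whose libraries were split over both lanes, and their values can be compared within a lane. On lane 1 the ratio was 4.48-fold higher in S280D than in S280A, all 13 mitochondrially encoded genes were higher, and 62 of the 78 nuclear genes were lower, with a median log2 difference of −0.56. On lane 2 the ratio was 2.08-fold higher, again with all 13 mitochondrially encoded genes higher, and 55 of 78 nuclear genes were lower at a median of −0.22. Counts over all genes were not made within a lane. With both lanes together, 6098 of all 12407 genes tested were higher and 6309 lower in S280D than in S280A. Other pairs on the same lane were compared after seeing the data. S280D replicate 1 had 3.84 times the mean YFP ratio on lane 1, and S280A replicate 1 had 0.560 times the mean WT ratio on lane 2. S280A replicate 2 had 0.859 times the mean YFP ratio on lane 1, and S280D replicate 2 had 1.17 times the mean WT ratio on lane 2.

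In S280D against YFP cells, all 13 mitochondrially encoded genes were higher and the nuclear subunit genes were mostly lower. A gene is said to have passed, and to have risen or fallen, where its adjusted p in edgeR's quasi-likelihood test was under 0.05, and log2 fold changes of single genes are given ± their standard error. The mitochondrial genes had log2 fold changes from 0.89 for Mt-nd3 to 1.79 for Mt-co2, with a median of 1.39. Of 77 nuclear genes tested, 35 fell and 4 rose, where 13.7% of all 12407 genes tested fell and 17.1% rose. The nuclear median was −0.34 and the median of all genes −0.02. By complex, 15 of 31 nuclear genes of complex I fell, 3 of 4 of complex II, 2 of 8 of complex III, 6 of 14 of complex IV and 9 of 18 with Atp5 names. The 4 that rose were Ndufs1, an iron-sulphur subunit of complex I, the complex III core gene Uqcrc2, Cox7b of complex IV, and Cycs_1. In every fit that left out 1 library, 12 of the 13 mitochondrial calls held, as did 6 nuclear ones: Cycs_1, which rose, and Ndufb7, Ndufa7, Ndufb2, Atp5a1 and Atp5i, which fell. With the lane as a term, 10 nuclear calls remained, these 6 with Sdhc, Cyc1, Atp5o and Atp5h, at an unchanged nuclear median of −0.34, where 13.3% of all genes passed. Nuclear calls and calls over all genes were both fewer without S280D replicate 1, S280D replicate 2 or YFP replicate 1. The nuclear medians in these fits were −0.29, −0.43 and −0.26.

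The same 13 mitochondrially encoded genes rose in WT against YFP cells, by log2 fold changes of 0.60 for Mt-nd3 to 1.50 for Mt-cytb and a median of 1.11. Among the 77 nuclear genes 18 fell and 3 rose, where 7.45% of all genes fell and 12.2% rose. The nuclear median was −0.22, beside −0.01 for all genes. The fallen genes included 8 of complex I, Sdha and Sdhc of complex II, Cyc1 of complex III, Cox8a of complex IV and 6 with Atp5 names. Ndufc1, a small complex I subunit, Cox7b and Cycs_1 rose. In every fit that left out 1 library, the calls of Mt-nd1, Mt-nd2, Mt-nd5, Mt-atp6 and Mt-cytb held. With the lane as a term no member passed, where 0.0725% of all genes did, although the medians were 1.16 for the mitochondrially encoded and −0.20 for the nuclear members. Without WT replicate 1, WT replicate 2 or YFP replicate 1, fewer members and fewer of all genes passed than with all libraries. The mitochondrial medians in these fits were 1.14, 1.21 and 0.99, and the nuclear medians −0.26, −0.25 and −0.16.

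In S280A against YFP cells no member passed. The mitochondrially encoded genes had a median log2 fold change of 0.35, from −0.13 for Mt-nd4l to 0.63 for Mt-co2, and the nuclear genes a median of 0.02, beside −0.02 for all genes. The mitochondrial median was 0.06 without S280A replicate 1 and 0.17 without YFP replicate 1, against 0.58 without S280A replicate 2 and 0.54 without YFP replicate 2. In the same fits the nuclear median was 0.11, 0.04, −0.08 and −0.05. In edgeR 0 of 13 mitochondrial and 0 of 77 nuclear genes passed in either direction, where 0.0403% of all genes rose and 0.0% fell. At an unadjusted p under 0.05 there were 5 mitochondrial and 10 nuclear genes, beside 1439 of all 12407 genes. DESeq2 called 0 mitochondrial and 2 nuclear genes, beside 0.806% of all genes. With no filter on low counts 3 mitochondrial and 2 nuclear genes passed, beside 1.37% of all genes. These 3 comparisons share the YFP libraries.

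S280D and S280A, which differ at 1 residue, also differed in both sets of genes. Of the 13 mitochondrially encoded genes 12 rose, with a median log2 fold change of 1.06 over all 13, and Mt-nd6 at 0.58 did not pass. Of 77 nuclear genes 39 fell and 4 rose, where 18.0% of all genes fell and 21.3% rose, and the nuclear median was −0.42 beside −0.01 for all genes. The fallen genes were 19 of 31 in complex I, 2 of 4 in complex II, 3 of 8 in complex III, 7 of 14 in complex IV and 8 of 18 with Atp5 names. Cycs_1, Cox6c, Cox7c and Cox7b rose. With the lane as a term, 13 mitochondrial and 39 nuclear genes passed, beside 32.3% of all genes, and the 39 were all among the 43 nuclear calls. Without S280A replicate 2 or S280D replicate 1, nuclear calls and calls over all genes were both fewer, at nuclear medians of −0.31 and −0.37. In every fit that left out 1 library 7 nuclear calls held: Cycs_1, which rose, and Ndufa11, Ndufb7, Ndufv1, Ndufa13_2, Cox6a1 and Atp5b, which fell. Ndufa13_2 is named for this stability, after its values were seen.

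Against WT cells, S280A cells had lower mitochondrially encoded and higher nuclear transcripts. Of the 13 mitochondrial genes 11 fell, with a median log2 fold change of −0.85, and Mt-nd3 at −0.16 and Mt-nd6 at −0.44 did not pass. Of the 77 nuclear genes 24 rose and 3 fell, where 10.1% of all genes rose and 15.9% fell. The nuclear median was 0.32, beside 0.01 for all genes. Complex I had 13 of 31 genes that rose, complex III 2 of 8, complex IV 2 of 14 and the Atp5 names 7 of 18, while no complex II gene passed. The 3 that fell were Cycs_1, Cox7b and Atp5f1_2, the copy of a stalk subunit gene with no unique reads. No member call held in every fit that left out 1 library. Calls of members and calls over all genes were both fewer without WT replicate 1, WT replicate 2 or S280A replicate 2. The nuclear medians in these fits were 0.31, 0.29 and 0.26. With the lane as a term, calls of members and calls over all genes were fewer as well. Without WT replicate 2 there were 2 nuclear calls, and with the lane as a term 6 mitochondrial and 2 nuclear genes passed, the nuclear pair being Ndufa11 and Cycs_1, while the medians were −0.75 over mitochondrial and 0.29 over nuclear genes. The mitochondrial median was −0.56 without S280A replicate 2.

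Between S280D and WT cells no difference in a member was detectable. In edgeR 0 of 13 mitochondrial and 0 of 77 nuclear genes passed, where 0.0% of all genes rose and 0.0403% fell. At an unadjusted p under 0.05 there were 1 mitochondrial and 2 nuclear genes, beside 606 of all 12407 genes. DESeq2 called 0 members, beside 0.322% of all genes. The median log2 fold change was 0.22 over mitochondrial and −0.10 over nuclear genes, and all 13 mitochondrial values were above 0. The mitochondrial median was 0.13 when the first S280D library was left out, 0.41 when the second was, 0.35 without WT replicate 1 and 0.33 with the lane as a term. The nuclear median was −0.06 without S280D replicate 1.

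**Figure D2:**
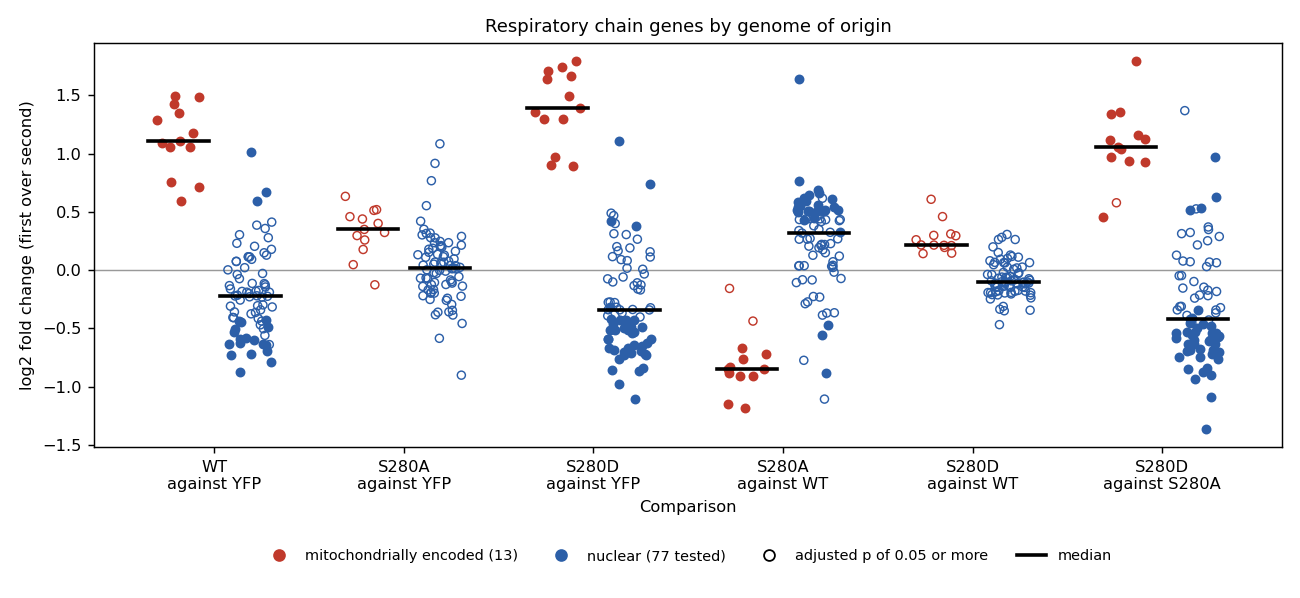
log2 fold change (first group over second) of each member in the 6 comparisons, with 13 mitochondrially encoded genes (red) left of the 77 nuclear genes tested (blue). Filled circles had an adjusted p under 0.05, open circles did not, and bars are medians; the medians of the sets lie at 1.39 and −0.34 in S280D against YFP and at 1.06 and −0.42 in S280D against S280A.

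Some pairs of comparisons share no library. Of the 18 nuclear genes that fell in WT against YFP, 16 (88.9%) were among the 39 that fell in S280D against S280A, which is 41.0% of the 39. Over all genes tested, 569 were lower in both, 61.6% and 25.5% of the lists. Of the 24 nuclear genes higher in S280A than in WT, 20 (83.3%) were among the 35 lower in S280D than in YFP (57.1%), and over all genes 682 were shared in this way, 54.6% and 40.1% of the lists. The 2 nuclear genes that rose in both WT against YFP and S280D against S280A were Cox7b and Cycs_1. They were among 3 nuclear genes that rose in the first comparison and 4 in the second. Over all genes tested, 1263 rose in both, 83.5% and 47.8% of the lists.

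Exon length bears on these counts, because members are short. With an offset for length in each library, the median of all genes moved to −0.13 in S280D against YFP, −0.13 in S280D against S280A and 0.10 in S280A against WT. Relative to that shift, the nuclear medians were −0.19, −0.20 and 0.14, against −0.32, −0.40 and 0.31 without the offset. In WT against YFP the median of all genes moved to −0.09, and the nuclear median relative to it was −0.10, against −0.21 without the offset. The mitochondrially encoded medians relative to all genes lay farther from 0 with the offset than without it, at 1.59 against 1.42 in S280D against YFP, 1.26 against 1.07 in S280D against S280A, 1.26 against 1.11 in WT against YFP and −0.98 against −0.86 in S280A against WT. Nuclear calls with it were 4 higher and 30 lower in S280D against YFP, 5 and 35 in S280D against S280A, 3 and 17 in WT against YFP, and 19 and 4 in S280A against WT. Over all genes the split became 1784 higher and 2567 lower in S280D against YFP, where it was 2116 and 1699. In S280D against S280A it became 2176 and 3147, where it was 2641 and 2232, in WT against YFP 1402 and 1599, where it was 1513 and 924, and in S280A against WT 2035 and 1660, where it was 1250 and 1976.

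The mitochondrial genome (chromosome MT of Rnor_6.0) is transcribed as long polycistronic RNAs that are cut into single messengers. Mt-co1, the catalytic subunit of complex IV at MT:5323-6867, had 6596 and 6235 CPM in S280D cells, 3435 and 2462 in S280A cells, 6063 and 5018 in WT cells and 2343 and 2869 in YFP cells. Its S280D and WT libraries were all above its S280A and YFP libraries, and its log2 fold change was 1.30 ± 0.17 (adjusted p = 0.00101) in S280D against YFP and 1.12 ± 0.17 (adjusted p = 0.00186) in S280D against S280A. Mt-cytb, the cytochrome b of complex III at MT:14136-15278, had 786 and 667 CPM in S280D cells, 347 and 219 in S280A cells, 686 and 567 in WT cells and 190.5 and 254 in YFP cells. Again every S280D and WT library was above every S280A and YFP library, and the log2 fold change was 1.71 ± 0.21 (adjusted p = 0.000754) in S280D against YFP and −1.15 ± 0.21 (adjusted p = 0.00804) in S280A against WT. Mt-atp6, a proton channel subunit of ATP synthase, had 859.6 and 768 CPM in S280D cells, 488 and 341 in S280A cells, 748 and 722 in WT cells and 273 and 305 in YFP cells. Its WT libraries were above both S280A and YFP libraries, with 1.35 ± 0.16 (adjusted p = 0.0021) in WT against YFP.

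Mt-co2, which accepts electrons from cytochrome c in complex IV, had 3299 and 2429.7 CPM in S280D cells, 1711 and 851 in S280A cells, 2417 and 2199 in WT cells and 881 and 771 in YFP cells. S280A replicate 2 lay within the YFP range and S280A replicate 1 between YFP and WT, and the log2 fold change in S280D against YFP was 1.79 ± 0.26 (adjusted p = 0.00139). Mt-nd3, a small complex I subunit, had the lowest log2 fold change of the 13 in S280D against YFP, with 156 and 158 CPM in S280D cells, 125 and 104 in S280A cells, 133 and 122 in WT cells and 89.9 and 79.0 in YFP cells. Here S280A lay between WT and YFP, with S280A and WT overlapping, and the log2 fold change was 0.89 ± 0.13 (adjusted p = 0.00122). Mt-nd4l had 41.6 and 26.2 CPM in S280D cells, 12.8 and 6.68 in S280A cells, 24.7 and 19.8 in WT cells and 8.84 and 12.5 in YFP cells, most of its reads were not unique, and it shares 7 bases with Mt-nd4. Its calls passed in unique reads as well.

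Mt-nd6 is the complex I subunit encoded on the opposite strand from the other 12, and it shares 23 bases with Mt-nd5. It had 295 and 184 CPM in S280D cells, 145 and 176 in S280A cells, 189 and 246 in WT cells and 110.3 and 146 in YFP cells. S280A and YFP overlapped, S280D and WT overlapped, and both S280D libraries were above both S280A libraries. The log2 fold change was 0.90 ± 0.22 (adjusted p = 0.0124) in S280D against YFP, 0.58 in S280D against S280A and −0.44 in S280A against WT. Whether its level relative to the other 12 differed among the constructs was tested after the data had been seen, and the exact permutation test gave p = 0.486. The files do not state the strand rule of the read counting, so reads of overlapping genes on opposite strands cannot be told apart. Mt-atp8 and Mt-atp6 share 43 bases.

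Within the mitochondrial reads, Mt-co1 took 41.7% and 46.3% in S280D cells, 42.1% and 44.5% in S280A cells, 45.9% and 43.2% in WT cells and 45.9% and 48.8% in YFP cells, with the groups overlapping. Mt-co2 took 20.9% and 18.1% in S280D, 20.9% and 15.4% in S280A cells, 18.3% and 18.95% in WT cells and 17.2% and 13.1% in YFP cells. Mt-nd3 took 0.989% and 1.17% in S280D and 1.01% and 1.05% in WT, below the 1.53% and 1.88% of S280A and the 1.76% and 1.34% of YFP cells.

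**Figure D3:**
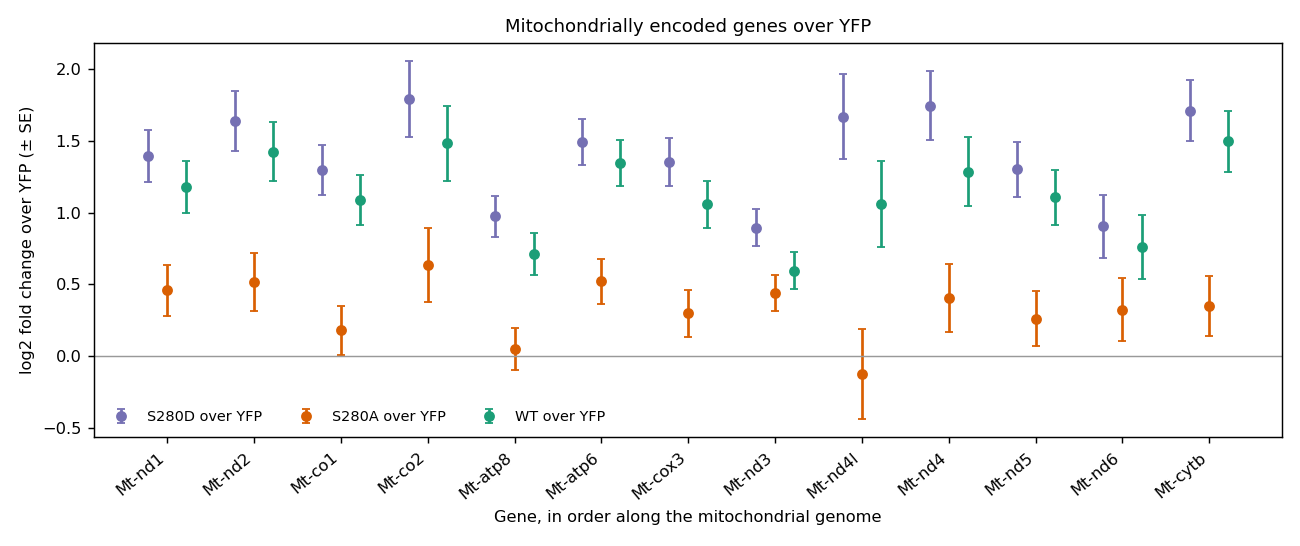
log2 fold change over YFP (± SE) of the 13 mitochondrially encoded genes in the order of their genome, for S280D (purple), S280A (orange) and WT (green). S280D lies between 0.89 and 1.79, S280A between −0.13 and 0.63 and WT between 0.60 and 1.50.

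Complex I, which takes electrons from NADH, had the most nuclear members and the most that fell. Ndufb7, an accessory subunit of its membrane arm, had 40.3 and 40.1 CPM in S280D cells, 65.5 and 78.6 in S280A cells, 50.6 and 50.9 in WT cells and 88.1 and 70.6 in YFP cells. Both S280D libraries were below all others, and the log2 fold change was −0.98 ± 0.14 (adjusted p = 0.00125) against YFP and −0.84 ± 0.14 (adjusted p = 0.00232) against S280A. Ndufv1, which binds the NADH-oxidising flavin, had 59.5 and 74.2 CPM in S280D cells, 105 and 139.8 in S280A cells, 73.9 and 77.4 in WT cells and 107 and 94.7 in YFP cells. Its S280A and YFP libraries overlapped and were all above the S280D and WT libraries, with −0.87 ± 0.16 (adjusted p = 0.003) in S280D against S280A and 0.69 ± 0.16 (adjusted p = 0.0138) in S280A against WT. Ndufa11, a membrane arm accessory subunit whose promoter is printed above, had 13.1 and 12.8 CPM in S280D cells, 23.0 and 25.5 in S280A cells, 14.7 and 13.8 in WT cells and 21.4 and 19.7 in YFP cells. S280A and YFP libraries were all above S280D and WT libraries, with −0.90 ± 0.15 (adjusted p = 0.00232) in S280D against S280A.

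Ndufa7 and Ndufb2, accessory subunits of the peripheral and the membrane arm, were highest in YFP cells. Ndufa7 had 23.0 and 25.0 CPM in S280D cells, 31.3 and 34.3 in S280A cells, 26.6 and 25.2 in WT cells and 42.9 and 42.7 in YFP cells, with YFP above all other libraries and −0.84 ± 0.13 (adjusted p = 0.00179) in S280D against YFP. Ndufb2 had 14.2 and 12.7 CPM in S280D cells, 17.8 and 24.0 in S280A cells, 12.6 and 14.0 in WT cells and 24.2 and 24.6 in YFP cells, where S280A replicate 2 came close to the YFP level. Its log2 fold change was −0.85 ± 0.17 (adjusted p = 0.00558) in S280D against YFP and −0.87 ± 0.18 (adjusted p = 0.00969) in WT against YFP. The summed level of the 31 nuclear genes was 1811 and 1936 CPM in S280D, 2493 and 2948 in S280A cells, 2063 and 2070.0 in WT cells and 2645 and 2312 in YFP cells, while that of the 7 mitochondrially encoded complex I genes was 2708 and 1994 CPM in S280D, 1351 and 1030 in S280A cells, 2012 and 1957 in WT cells and 839.6 and 978 in YFP cells. S280D and WT were thus on the low side for 1 set and on the high side for the other.

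Complex II, succinate dehydrogenase, has no mitochondrially encoded subunit. Sdha, its flavoprotein, had 36.9 and 39.3 CPM in S280D cells, 34.4 and 40.2 in S280A cells, 36.4 and 36.4 in WT cells and 50.6 and 51.7 in YFP cells. Both YFP libraries were above all others, and the log2 fold change was −0.43 ± 0.13 (adjusted p = 0.0273) in S280D against YFP and −0.49 ± 0.13 (adjusted p = 0.024) in WT against YFP. Sdhb, the iron-sulphur subunit, had 73.5 and 84.0 CPM in S280D cells, 92.2 and 118 in S280A cells, 90.4 and 91.7 in WT cells and 117 and 108 in YFP cells, with −0.51 ± 0.14 (adjusted p = 0.018) in S280D against YFP and −0.42 ± 0.14 (adjusted p = 0.0339) in S280D against S280A. Its S280A libraries overlapped YFP, and S280A replicate 1 lay beside WT. Sdhc, a membrane anchor, had 47.6 and 45.9 CPM in S280D cells, 58.4 and 70.3 in S280A cells, 54.3 and 52.4 in WT cells and 76.8 and 67.5 in YFP cells, with S280D below every other library and −0.63 ± 0.13 (adjusted p = 0.00613) against YFP. Sdhd, the other anchor, had 26.7 and 28.2 CPM in S280D cells, 22.8 and 20.2 in S280A cells, 27.2 and 23.2 in WT cells and 23.0 and 28.5 in YFP cells and passed in no comparison.

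In complex III, Cyc1, the cytochrome c1 that hands electrons to cytochrome c, had 43.6 and 48.5 CPM in S280D cells, 55.5 and 81.2 in S280A cells, 48.4 and 53.3 in WT cells and 81.9 and 85.4 in YFP cells. YFP was above all others but S280A replicate 2 came close to it, and the log2 fold change was −0.86 ± 0.16 (adjusted p = 0.00426) in S280D against YFP and −0.72 ± 0.17 (adjusted p = 0.0156) in WT against YFP. Uqcrc1, a core subunit, had 118 and 136 CPM in S280D cells, 185 and 245 in S280A cells, 143 and 149.8 in WT cells and 208 and 155 in YFP cells. Its S280D and WT libraries were below all S280A and YFP libraries, with −0.76 ± 0.17 (adjusted p = 0.0064) in S280D against S280A. Uqcrq, a small subunit near the quinone sites, had 429.7 and 460.0 CPM in S280D cells, 665 and 765 in S280A cells, 517 and 494 in WT cells and 647 and 499 in YFP cells. YFP overlapped WT, and S280A stood highest, with −0.68 ± 0.14 (adjusted p = 0.00451) in S280D against S280A. Uqcrc2, the partner core subunit of Uqcrc1, had 98.7 and 102 CPM in S280D cells, 87.1 and 77.5 in S280A cells, 99.4 and 93.0 in WT cells and 81.9 and 68.3 in YFP cells. Here S280D and WT were above S280A and YFP, with 0.42 ± 0.13 (adjusted p = 0.0284) in S280D against YFP.

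Cytochrome c differed from most nuclear members. Cycs_1, on chromosome 4 at 80331227 to 80333326 of Rnor_6.0, had 151 and 120.2 CPM in S280D cells, 76.7 and 61.4 in S280A cells, 145 and 109.7 in WT cells and 61.7 and 64.6 in YFP cells. Over all 12407 genes tested, both S280D libraries were above both YFP libraries in 33.9% and above both S280A libraries in 36.6%. Both S280A libraries were below both WT libraries in 35.2%. In Cycs_1 every S280D and WT library was above every S280A and YFP library. This order was found in 12 of the 13 mitochondrially encoded genes, all but Mt-nd3. How many of all genes had it was not counted. Of all genes, 0.0403% passed in S280A against YFP and 0.0403% in S280D against WT, while 19.6% to 39.3% passed in each of the other comparisons. The log2 fold change was 1.11 ± 0.17 (adjusted p = 0.00164) in S280D against YFP, 1.01 ± 0.17 (adjusted p = 0.00526) in WT against YFP, −0.88 ± 0.17 (adjusted p = 0.00864) in S280A against WT and 0.98 ± 0.17 (adjusted p = 0.00252) in S280D against S280A. In unique reads the 4 values were 1.22, 1.09, −0.92 and 1.05, and each passed. The calls in S280D against YFP and against S280A held in every fit that left out 1 library and with the lane as a term. In WT against YFP the lane term ended the call at a log2 fold change of 1.03 (adjusted p = 0.118), where 0.0725% of all genes passed.

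**Figure D4:**
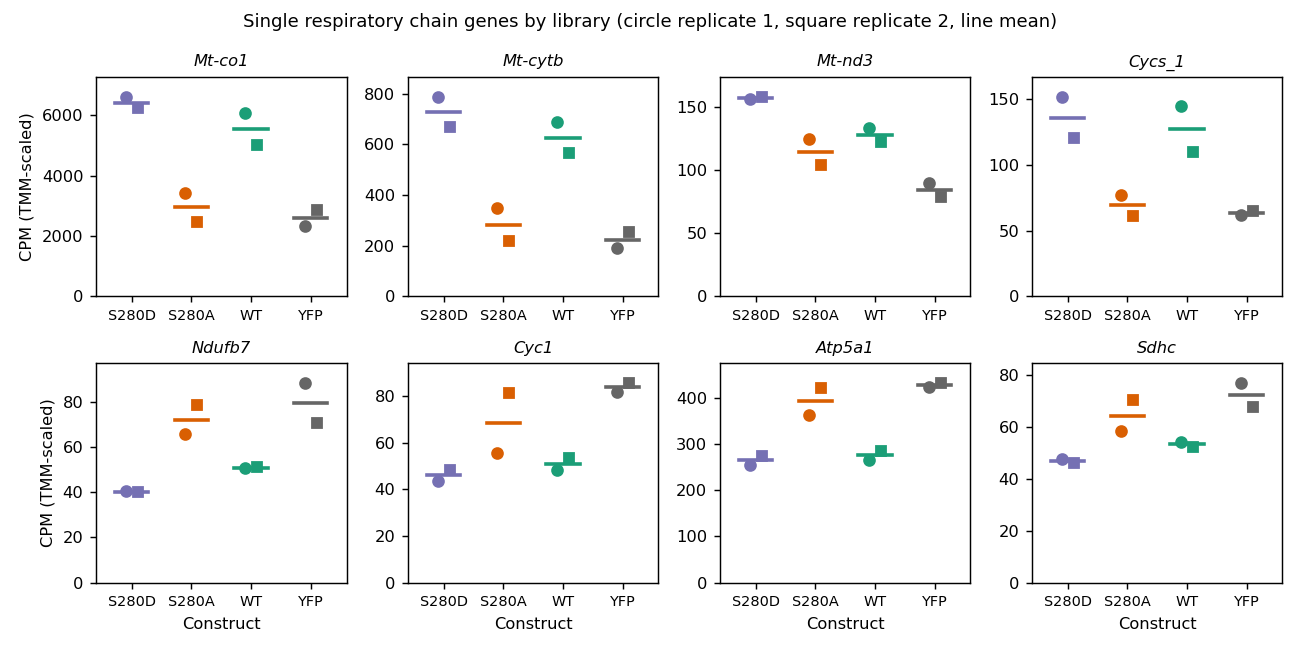
TMM-scaled CPM of 8 respiratory chain genes in every library, with circles for replicate 1, squares for replicate 2 and lines for the mean. Mt-co1, Mt-cytb and the nuclear gene Cycs_1 (top row) are higher in all S280D and WT libraries than in S280A and YFP libraries, and Ndufb7, Cyc1, Atp5a1 and Sdhc (bottom row) are lower there, while WT and S280A overlap for Mt-nd3 (top row).

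Complex IV held nuclear genes that went both ways. Cox4i1, the main isoform of its subunit 4, had 199 and 222 CPM in S280D cells, 281 and 357 in S280A cells, 257 and 219.9 in WT cells and 334 and 298 in YFP cells, and the log2 fold change was −0.59 ± 0.14 (adjusted p = 0.0118) in S280D against YFP. S280D and WT overlapped, and all their libraries were below those of S280A and YFP. Cox6a1, the ubiquitous isoform of subunit 6a and the most abundant nuclear member per length, had 422 and 437 CPM in S280D cells, 672 and 873 in S280A cells, 534 and 559 in WT cells and 809.9 and 596 in YFP cells. S280D was below all others, with −0.85 ± 0.16 (adjusted p = 0.00355) against S280A and −0.71 ± 0.16 (adjusted p = 0.00878) against YFP, but only 7.30% of its reads were unique. In unique reads the log2 fold change was −0.52 (adjusted p = 0.0437) in S280D against S280A, and −0.19 (adjusted p = 0.479) in S280D against YFP, where it did not pass. In WT against YFP, where all reads gave −0.36 and did not pass, unique reads gave 0.08.

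Cox7b had 50.2 and 38.9 CPM in S280D cells, 34.1 and 23.8 in S280A cells, 43.9 and 41.4 in WT cells and 24.7 and 28.7 in YFP cells, with S280D and WT libraries above S280A and YFP libraries. It rose by 0.74 ± 0.18 (adjusted p = 0.0133) in S280D against YFP and 0.62 ± 0.19 (adjusted p = 0.0221) in S280D against S280A, and in unique reads by 0.93 (adjusted p = 0.0202) and 0.75 (adjusted p = 0.0446). In WT against YFP the unique reads gave 0.75 (adjusted p = 0.0691) and in S280A against WT −0.57 (adjusted p = 0.145), neither of which passed. Cox6c, another small subunit, had 89.0 and 81.5 CPM in S280D cells, 62.2 and 56.9 in S280A cells, 85.1 and 68.3 in WT cells and 63.4 and 78.3 in YFP cells, with 0.52 ± 0.15 (adjusted p = 0.0185) in S280D against S280A. Cox7c had 37.5 and 36.4 CPM in S280D cells, 26.9 and 24.1 in S280A cells, 33.3 and 28.2 in WT cells and 28.6 and 36.1 in YFP cells, with 0.54 ± 0.16 (adjusted p = 0.0202). For both genes, WT and YFP libraries overlapped and the S280A libraries were below all others.

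Several subunits of complex IV exist in isoforms. Cox6a2, the muscle isoform of subunit 6a, had 16.9 and 11.9 CPM in S280D cells, 25.0 and 36.7 in S280A cells, 18.1 and 22.1 in WT cells and 40.2 and 22.4 in YFP cells, and its log2 fold change was −1.08 ± 0.28 (adjusted p = 0.0125) in S280D against S280A and −1.11 ± 0.28 (adjusted p = 0.0141) in S280D against YFP. Its 2 YFP libraries differed widely from each other. Cox7a2l, which takes part in supercomplexes of III and IV, had 319 and 347 CPM in S280D cells, 442 and 469.9 in S280A cells, 350.1 and 350.2 in WT cells and 336 and 199.9 in YFP cells, with S280A above S280D and WT and the YFP libraries apart from each other, and it passed in no comparison. Cox4i2, Cox6b2, Cox8b and Cox8c, isoforms of restricted tissues, were under the read minimum. Ndufa4 had 80.3 and 80.9 CPM in S280D cells, 73.1 and 79.6 in S280A cells, 81.5 and 78.8 in WT cells and 73.2 and 79.0 in YFP cells, so all libraries lay between 73.1 and 81.5 CPM, and it passed in no comparison.

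**Figure D5:**
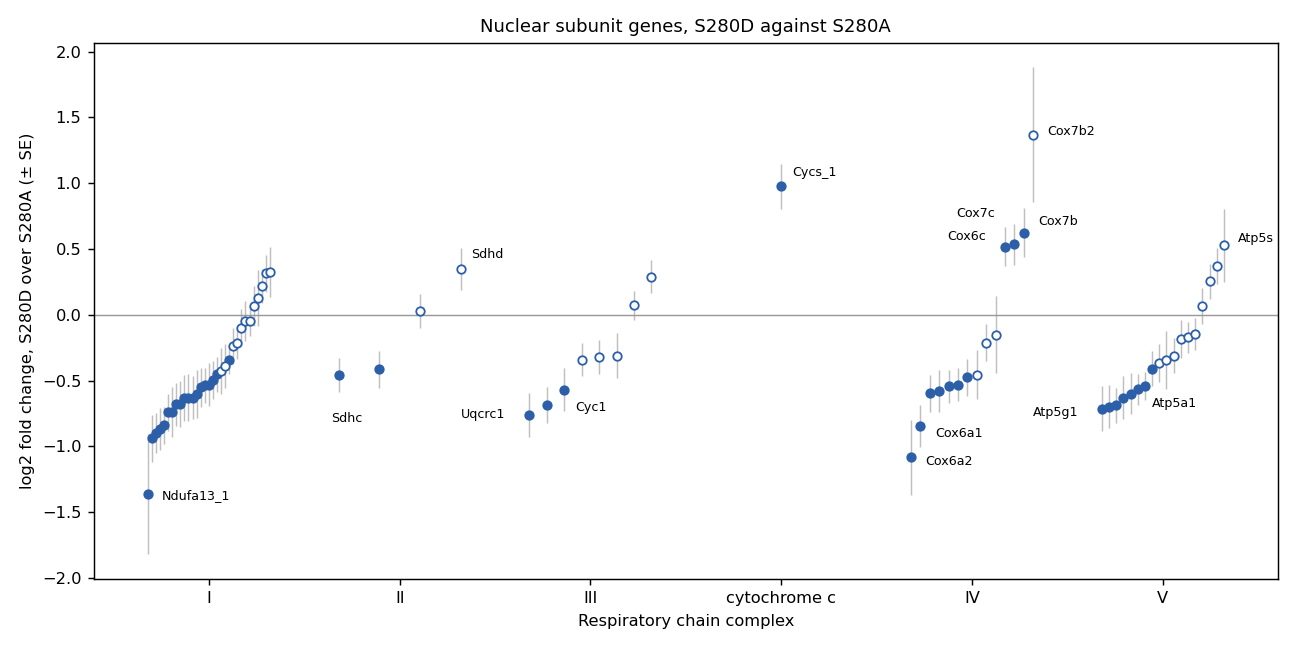
log2 fold change (± SE) in S280D against S280A of the nuclear members, ordered within each complex. Filled circles had an adjusted p under 0.05; most lie below 0, at −0.34 to −1.36, while Cycs_1, Cox6c, Cox7c and Cox7b lie between 0.52 and 0.98.

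ATP synthase genes of the catalytic head, the stalk and the membrane part were lower in S280D than in YFP cells. Atp5a1, the alpha subunit, had 255 and 273 CPM in S280D cells, 362 and 421 in S280A cells, 266 and 285 in WT cells and 422 and 431 in YFP cells. S280D and WT libraries were all below S280A and YFP libraries, and the log2 fold change was −0.69 ± 0.12 (adjusted p = 0.00248) in S280D against YFP and 0.51 ± 0.12 (adjusted p = 0.0135) in S280A against WT. Atp5b, the catalytic beta subunit, had 769 and 796 CPM in S280D cells, 1120.4 and 1405 in S280A cells, 833 and 901 in WT cells and 1239.7 and 1121 in YFP cells, with the same order of groups and −0.69 ± 0.13 (adjusted p = 0.00355) in S280D against S280A. Atp5o, a stalk subunit, had 66.4 and 69.5 CPM in S280D cells, 79.3 and 101 in S280A cells, 76.9 and 73.2 in WT cells and 108 and 106 in YFP cells, with YFP highest and −0.65 ± 0.13 (adjusted p = 0.00542) in S280D against YFP. Atp5i, a membrane subunit, had 22.8 and 21.8 CPM in S280D cells, 27.8 and 29.7 in S280A cells, 19.5 and 23.1 in WT cells and 34.6 and 39.0 in YFP cells, again with YFP above all others and −0.79 ± 0.15 (adjusted p = 0.0071) in WT against YFP.

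The ring of c subunits is made from 3 nuclear genes that encode the same mature protein. Atp5g1 had 49.2 and 57.0 CPM in S280D cells, 76.6 and 97.6 in S280A cells, 55.4 and 58.2 in WT cells and 89.4 and 64.4 in YFP cells, and it was lower in S280D than in S280A at −0.71 ± 0.17 (adjusted p = 0.00907). Atp5g2 had 67.8 and 66.1 CPM in S280D cells, 86.5 and 121 in S280A cells, 72.0 and 72.5 in WT cells and 121 and 96.6 in YFP cells, with −0.70 ± 0.16 (adjusted p = 0.00959) in S280D against YFP. In both genes the S280A and YFP libraries were above the S280D and WT libraries. Atp5g3 had 108 and 113 CPM in S280D cells, 117 and 128 in S280A cells, 127 and 111 in WT cells and 117 and 103 in YFP cells, with the groups overlapping, and passed in no comparison. The summed level of the 18 Atp5 genes was 2100.0 and 2194 CPM in S280D, 2817 and 3371 in S280A cells, 2312 and 2370.0 in WT cells and 3141 and 2932 in YFP cells, beside 1480.0 and 1333 CPM in S280D, 838 and 615 in S280A cells, 1255 and 1204 in WT cells and 544 and 638 in YFP cells for Mt-atp6 and Mt-atp8 together.

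Other library values moved with the nuclear members. Fibroblast or mesenchymal markers, of which 8 of 9 were detected, summed to 51328 and 55698 CPM in S280D, 65060.2 and 75842 in S280A cells, 46747 and 53205 in WT cells and 67319 and 74329 in YFP cells, again with the S280D and WT libraries below the S280A and YFP libraries. Col1a1 and Col1a2, the largest of these markers, had this order, while Col3a1, Vim, Pdgfrb, Thy1, Dcn and Lum did not. Col3a1 had 5139 and 5595 CPM in S280D and 5253 and 5068 in S280A cells. Dcn was highest in S280D cells, at 29.5 and 28.4 CPM. The part of these markers in the result was not tested. Muscle markers summed to 684 and 713 CPM in S280D, 763 and 938 in S280A cells, 511 and 609.6 in WT cells and 758 and 809 in YFP cells. Intron reads were 14.4% and 15.1% in S280D, 14.2% and 15.8% in S280A cells, 14.4% and 14.5% in WT cells and 11.0% and 11.9% in YFP cells, which sets YFP apart but not S280A, and their part was not tested either.

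Genes that build the chain or express the mitochondrial genome, with regulators and mass markers, were called at shares mostly near those of all genes. Of 92 tested, 16 (17.4%) rose and 13 (14.1%) fell in S280D against YFP, beside 17.1% and 13.7% of all genes. In S280D against S280A 16 (17.4%) rose and 17 (18.5%) fell, beside 21.3% and 18.0%. In WT against YFP 11 (12%) rose and 4 (4.35%) fell, beside 12.2% and 7.45%. In S280A against WT 3 (3.26%) rose and 14 (15.2%) fell, beside 10.1% and 15.9%, and in S280A against YFP 1 rose (Ppara) and 0 fell. In S280D against WT 0 passed in edgeR and 0 in DESeq2, beside 0.0403% and 0.322% of all genes. There 1 had an unadjusted p under 0.05, beside 606 of all 12407 genes. Among 40 assembly factors, 6 (15.0%) rose and 9 (22.5%) fell in S280D against YFP, and 4 (10.0%) rose and 8 (20%) fell in S280D against S280A. Among 27 genes of mitochondrial genome expression, 6 (22.2%) rose and 1 (3.70%) fell in S280D against YFP, and 7 (25.9%) rose and 3 (11.1%) fell in S280D against S280A, and whether these shares differ from those of all genes was not tested. Over these lists the median log2 fold change in S280D against YFP was −0.08 and 0.13, beside −0.02 for all genes. Among 8 regulators of respiratory genes 3 rose in S280D against YFP, counting Ppara itself, and among 17 genes of mitochondrial mass and import 1 rose and 3 fell. In S280D against YFP, calls over these lists numbered 9 with the lane as a term, where 13.3% of all genes passed. They were fewer, as were calls over all genes, without S280D replicate 1, S280D replicate 2, YFP replicate 1 or WT replicate 1. The same held in S280D against S280A without S280D replicate 1 or S280A replicate 2.

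Pnpt1, the mitochondrial polynucleotide phosphorylase, had 92.5 and 76.0 CPM in S280D cells, 31.4 and 24.8 in S280A cells, 82.1 and 73.0 in WT cells and 25.4 and 34.0 in YFP cells. S280D and WT libraries were all above S280A and YFP libraries, and the log2 fold change was 1.50 ± 0.17 (adjusted p = 0.000754) in S280D against YFP and 1.58 ± 0.18 (adjusted p = 0.00159) in S280D against S280A. Tfb2m, a factor that starts mitochondrial transcription, had 40.5 and 33.4 CPM in S280D cells, 19.4 and 17.1 in S280A cells, 33.0 and 28.1 in WT cells and 15.6 and 14.9 in YFP cells, with 1.28 ± 0.16 (adjusted p = 0.000754) in S280D against YFP. Gabpa, the DNA-binding subunit of the factor whose word was searched above, rose by 1.28 ± 0.25 (adjusted p = 0.00456) in S280D against YFP and 1.50 ± 0.26 (adjusted p = 0.00241) in S280D against S280A. Ndufaf4, a complex I assembly factor, rose by 1.43 ± 0.27 (adjusted p = 0.00439) and 1.48 ± 0.28 (adjusted p = 0.00354) in these comparisons, while Cox14, a complex IV assembly factor, fell, with log2 fold changes of −1.06 ± 0.24 (adjusted p = 0.00857) and −0.89 ± 0.25 (adjusted p = 0.0162). Tfam, which packages mitochondrial DNA, Polrmt, the mitochondrial RNA polymerase, Nrf1 and the matrix enzyme citrate synthase gene Cs passed in no comparison, and their log2 fold changes in S280D against YFP were 0.05, −0.58, 0.05 and −0.18. Phb, a prohibitin of the inner membrane, fell, at −0.80 ± 0.14 (adjusted p = 0.00315) in S280D against YFP and −0.65 ± 0.14 (adjusted p = 0.00634) in S280D against S280A. In WT against YFP the lane term ended the calls of Pnpt1, Tfb2m, Gabpa and Ndufaf4, whose log2 fold changes with it were 1.38, 1.06, 1.21 and 1.13, against 1.38, 1.00, 1.03 and 1.16 without it.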

How the data were processed

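Poly(A) RNA of H9C2 cells, selected in 2 rounds, was sequenced from 8 libraries in 4 groups, so all levels are of polyadenylated RNA. The authors deposited 1 table of raw counts per gene and library on exons (in total and at unique positions) and on introns. It also holds RPKM, exon lengths and gene coordinates, per the file headers. The build is Rnor 6.0, per the submitters' processing notes. Which aligner, annotation and strand rule were used is not given in the sources at hand. Per the labels, groups follow the construct. WT replicate 2 carries the number 3 in its description but 2 in its title.

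The main test was edgeR's quasi-likelihood test (edgeR 4.0.16, R 4.3.3) on total exon reads of the 12407 genes passing filterByExpr, with TMM scaling. One model held all 8 libraries and a coefficient for each group, leaving 4 residual degrees of freedom (biological coefficient of variation 0.133). Its 6 two-sided contrasts were each adjusted by Benjamini-Hochberg over all genes, with a threshold of 0.05. Of the members, 77 nuclear and 13 mitochondrially encoded genes were tested, and Ndufa4l2 was not. CPM are TMM-scaled, and RPKM are the values the authors deposited. Shares and ratios used unscaled reads and exact permutation tests over the groups (two-sided by construction, scipy 1.17.1). Reads came from PCR without molecular identifiers and do not count molecules. The smallest library held 14018785 exon reads. The scripts were tested on simulated data, and no 2 libraries had the counts of a duplicate.

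The members and lists were chosen with earlier results of these data known. Named are the mitochondrially encoded genes, Ppara, per comparison and complex up to 3 nuclear members in each direction with the smallest p among those that passed, complex II, Cycs_1, Cyc1, isoform groups, the highest and lowest RPKM, and up to 2 members of each other list per direction, with Tfam, Polrmt, Nrf1 and Cs added after their values were seen. The cardiac, muscle, fibroblast, endothelial, blood and epithelial marker lists were used as a check. Of the endothelial markers 2 had at least 10 reads in a library, of the blood markers 3 and of the epithelial markers 1. Replicate numbers were not taken to pair libraries, since same-numbered libraries had correlations of −0.17 to 0.21 in their deviations from the group means. Alternatives were another scaling, other filters, DESeq2 1.42.0, fewer libraries, a replicate block, a lane term, unique reads and a length offset. Within-lane values against WT or YFP and the Mt-nd6 ratio were added after seeing the data.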

Additional observations from a re-analysis of the deposited data

How the results depend on the processing

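Of 160 named calls none reversed its direction under the alternatives run, and 160 were kept with scaling by nuclear genes only, 158 with DESeq2, 157 with other size factors, 151 with the 4 libraries compared only and 88 with the lane as a term. Leaving out WT replicate 1 kept 88, S280A replicate 2 kept 106, and S280D replicate 1 kept 114. The cause of these losses was not tested, and leaving a library out also leaves 1 group with a lone library, assumed to vary like the others.

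With the lane as a term, nuclear calls numbered 0 in WT against YFP, 10 in S280D against YFP and 2 in S280A against WT, mitochondrially encoded calls 0 in WT against YFP and 6 in S280A against WT, and calls over the other lists 1, 9 and 6 in WT against YFP, S280D against YFP and S280A against WT. Without a filter on low counts, S280A against YFP had 2 nuclear, 3 mitochondrially encoded and 3 other calls, beside 1.37% of all genes. There DESeq2 gave 2 nuclear calls, beside 0.806% of all genes. With the 4 libraries compared only, the other lists had 19 calls in S280D against YFP.

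Leaving out 1 library gave 7 to 41 nuclear calls in S280D against YFP, 8 to 50 in S280D against S280A, 0 to 26 in WT against YFP, 0 to 34 in S280A against WT and 0 to 2 in S280A against YFP. Mitochondrially encoded calls were 5 to 13 in WT against YFP and 0 to 11 in S280A against WT. The other lists had 9 to 31, 7 to 37, 2 to 16, 0 to 23 and 1 to 3 calls in these 5 comparisons, in the order just given. The p across constructs was 0.0667 for the ratio by the Kruskal-Wallis statistic, and without 1 library 0.0191 to 0.0952 for the ratio and 0.00952 to 0.105 for the mitochondrial share. The log2 ratio lay between −0.22 and 0.59 in S280A against YFP, reversing to −0.22 without S280A replicate 1 and to −0.02 without YFP replicate 1, between −1.64 and −0.84 in S280A against WT, and between 1.21 and 2.01 in S280D against S280A.

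With the replicate number as a block, nuclear calls were 32 in S280D against YFP, 18 in WT against YFP, 22 in S280A against WT and 43 in S280D against S280A, with 0 in the other comparisons. Depth limits genes of few reads such as Ndufa4l2, Cox7b2 and Ndufa13_1.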
